A study of Mus musculus with 2 samples.

Results

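Mirtrons are microRNAs (miRNAs) whose hairpin precursor is an intron or part of one. In a conventional mirtron the spliced intron is debranched and folds directly into a hairpin that Dicer can cut, so the Drosha cut of other miRNAs is bypassed. In a tailed mirtron only one end of the hairpin is made by splicing, and the extra intron sequence at the other end has to be trimmed away. The genes described here are those with symbols from Mir6896 to Mir7093, a run of miRBase entries made mostly of such intronic hairpins. The counts comprised 177 of these genes among 1973 miRNA genes. They covered 175 of the 198 numbers in that range, since Mir6973a with Mir6973b and Mir7036 with Mir7036b share a number, and the other 23 numbers were not analysed here.

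The samples were midbrain of mouse embryos (strain B6NCrl) at embryonic day 16.5, healthy and of both sexes pooled. They formed 1 group of 2 libraries from separate tissue pools, with 37 embryos in the pool of replicate 2. Small RNA inserts were below 30 nt. The sense strand of miRNA genes held 6151299 reads in replicate 1 and 5312642 in replicate 2. Levels are given as CPM, each gene's reads scaled by these totals, with the SD over n = 2 libraries. Tissue bulk was sequenced, so fewer cells of a type and less RNA per cell cannot be told apart. The labelled tissue was checked on miRNAs of neurons, of which Mir137 stood at 15108 ± 1072 CPM, Mir128-1 at 2456 ± 387, Mir9-3 at 405 ± 59.6 and Mir124a-1 at 5.04 ± 0.47. The liver miRNA Mir122 stood at 65.1 ± 13.9 CPM and the heart miRNA Mir208a at 1.48 ± 0.030. Reads mapping to several places, 35.3% and 36.5% of all reads, were counted apart from the genes. Levels of genes with copies, as the suffixes of Mir128-1, Mir9-3 and Mir124a-1 mark, can therefore be too low. How far this holds was not tested.

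The hairpins of the 3 most abundant members with an entry in RefSeq's table (build GRCm38.p6) show how the splice site sequences sit at their ends. The first and last 2 bases are in capitals: an intron begins with GU and ends with AG. Mir6944 (chr13:55477681-55477776, minus strand) and Mir6958 (chr15:89185465-89185537, minus strand) fill whole introns, whereas Mir6928 (chr11:101030340-101030409, plus strand) holds the 3′ end of a longer one.
Mir6944: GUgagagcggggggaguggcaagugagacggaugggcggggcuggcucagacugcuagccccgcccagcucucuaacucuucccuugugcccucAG
Mir6958: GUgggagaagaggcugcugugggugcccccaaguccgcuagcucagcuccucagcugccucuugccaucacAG
Mir6928: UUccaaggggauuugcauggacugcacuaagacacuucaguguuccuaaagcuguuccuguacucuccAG

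Mature sequences of leading members are given next with the seed (bases 2 to 8), the part that pairs with target mRNAs, in capitals. They show the purine-rich 5p arm and the pyrimidine-rich 3p arm that recur through the batch.
miR-6944-5p: gUGAGAGCggggggaguggcaag
miR-6944-3p: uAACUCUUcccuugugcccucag
miR-6958-5p: gUGGGAGAagaggcugcugugg
miR-6958-3p: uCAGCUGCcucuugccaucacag
miR-6928-3p: aAGCUGUUccuguacucuccag
miR-6897-3p: cGGUCUGUguucuucccccag
miR-6934-3p: aCCUCUGCuccugccccaccag
miR-7066-3p: uCUACCCAuugccugccucccag
miR-6977-5p: gUGAGGCGcugugggcacggcuugg
Of these, the 3p sequences end in the AG of the intron's 3′ splice site, and miR-6944-5p, miR-6958-5p and miR-6977-5p begin at the first base of the intron. The list is a selection that does not hold both arms of each member. The 3p sequence of Mir6977, not printed, ends 4 bases before the hairpin's end and not in AG. Mir6951, Mir6971 and Mir6979, also among the 10 highest members, had no mature entry. The counts are per hairpin, so they do not tell the 5p arm from the 3p arm.

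Nearly all members lay at a splice site, and most were tailed rather than whole introns. With a tolerance of 5 bases against GENCODE M21 introns of the same strand (assembly mm10), 169 of 177 hairpins (95.5%) had at least one end at an intron end. In 150 of them only the 3′ end did so, at the acceptor, the arrangement of a 5′-tailed mirtron. In 15 the hairpin and the intron coincided at both ends, and in 4 only the 5′ end lay at the donor. The 3′ end fell exactly on the last base of the intron in 164 members and the 5′ end exactly on its first base in 18. All 177 had a protein-coding host, 173 distinct hosts in all. The 8 members without an end at a splice site were Mir7036b and 7 that overlapped an exon. Mir7036b lay inside a 24255-base intron of Add1, 237 bases from its start, and also overlapped an exon of another transcript. Of the 7 that overlapped an exon, 6 had an end at an intron end once 10 bases were allowed. In 32 of the intronic members the hairpin also overlapped an exon of an annotated transcript, so exon reads of that transcript would be counted with them. These include Mir7082 and Mir7010, which run slightly past the end of their own intron. Among detected intronic members the overlap applies to Mir6958, Mir7019, Mir6935 and Mir6945.

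This arrangement was counted less often in each other block of miRNA numbers. A hairpin end at an intron end was found in 4 of 474 genes up to Mir999 (let-7 genes included, 0.844%), 16 of 156 from Mir1000 to Mir4999 (10.3%), 5 of 148 from Mir5000 to Mir6895 (3.38%) and 11 of 96 above Mir7093 (11.5%). The members held 15 of the 23 whole-intron hairpins among the 1894 genes with a position. The plot of hairpin ends by miRNA number shows the contrast, which describes the annotation and was not tested.

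**Figure D1:**
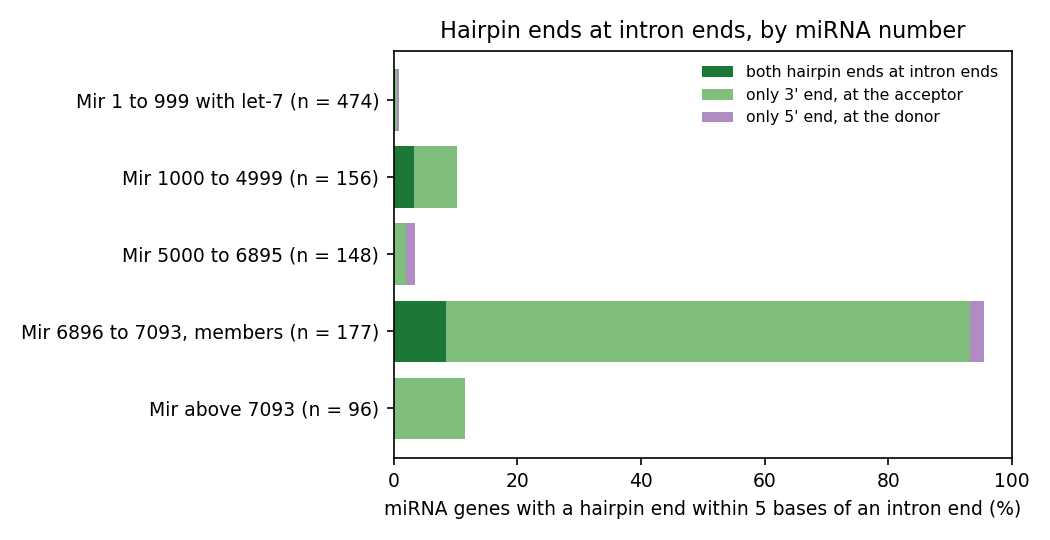
Percentage of miRNA genes whose hairpin has one or both ends within 5 bases of an intron end, for blocks of miRNA numbers, with n the genes that have a position. Bars are split into both ends (dark green), the 3′ end only (light green) and the 5′ end only (purple). The members reach 95.5%, and each other block stays at or below 11.5%.

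The end bases of the hairpins largely restate the position, since an intron begins with GU and ends with AG. The counts of end bases are therefore no separate support for it. Of the 160 members with a hairpin in the RefSeq table, all at the same position in both annotations, 148 (92.5%) ended in AG, against 8.89% of 709 other hairpins, read on the hairpin's own strand at its last 2 bases. All 12 whole-intron members with a sequence ended in AG and 10 began with GU. Of the 137 with the 3′ end at the acceptor, 136 ended in AG and 12 began with GU. The 4 with the 5′ end at the donor all began with GU and 0 ended in AG. Over all members 16.9% began with GU, against 6.77% of the other hairpins.

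The member hairpins were short, with a median of 66 bases (range 52 to 137), against 84 for other hairpins, and richer in G and C (median 57.8% against 50.6%). Predicted folding energy per base was close, with medians of -0.40 kcal/mol for members and -0.42 for other hairpins. The arms differed in base makeup. Among 154 annotated 3p sequences the median share of C or U was 71.4%, against 54.5% in 577 other 3p sequences. Of the member 3p sequences 78.6% ended in AG, against 13.3% of the others, which again largely restates the position. Among 156 annotated 5p sequences the median share of G was 45.5%, against 27.3% in 571 others. The 3p sequence ended on the last base of the hairpin in 116 members, whereas the 5p sequence began on the first base in 21. None of the 160 hairpins shared a run of 20 bases with another hairpin of the table, against 18.2% of the others and 29.9% of those up to Mir999. Reads of shared runs can map to several places and are then not counted to a gene. Levels and detection outside the members can be lowered by this, which was not tested. Copies elsewhere in the genome were not searched.

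As a group the members were scarce. They held 1417 reads in replicate 1 (0.0230% of sense-strand miRNA gene reads, exact binomial 95% interval 0.0219 to 0.0243) and 1180 in replicate 2 (0.0222%, 0.0210 to 0.0235). The mean share was 0.0226% ± 0.00058. The intervals overlapped, and they cover counting error only. Replicate 1 had reads for 122 members and replicate 2 for 116. All member reads lay on the sense strand, with 0 on the opposite strand in both libraries.

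The reads were spread thinly over many members. At least 1 read over both libraries was seen in 140 of 177 (79.1%), compared with 38% of all 1973 genes, and in 75.3% of the genes up to Mir999. It was seen in 65.4% of those from Mir1000 to Mir4999, 29.7% from Mir5000 to Mir6895 and 55.2% above Mir7093. Detection, meaning 10 or more reads in each library, was reached by 23 members (13.0%), against 20.8% of all genes, 63.7% of those up to Mir999, 35.9% of those from Mir1000 to Mir4999, 8.11% of those from Mir5000 to Mir6895 and 11.5% of those above Mir7093. The order against all genes turned with the minimum: at 3 reads in each library 36.7% of members passed against 26.7% of all genes, and at 1 read 55.4% against 31.1%. All genes include 922 without a numbered Mir symbol, of which 5.86% had a read and 0.759% were detected. Those genes lower each share over all genes. These shares are descriptions of annotation blocks that were chosen with the results known. Of the members below detection, 39 had 10 or more reads in all but not in each library, 46 had 3 to 9, 32 had 1 or 2 and 37 had 0. The median member stood at 0.38 CPM. That is about the weight of 2 reads in each library, as 1 read is worth 0.163 CPM in replicate 1 and 0.188 in replicate 2. A count of 0 allows up to 3 reads, or 0.488 and 0.565 CPM, so the 37 members at 0 reads were not detectable at this depth rather than shown to be absent.

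**Figure D2:**
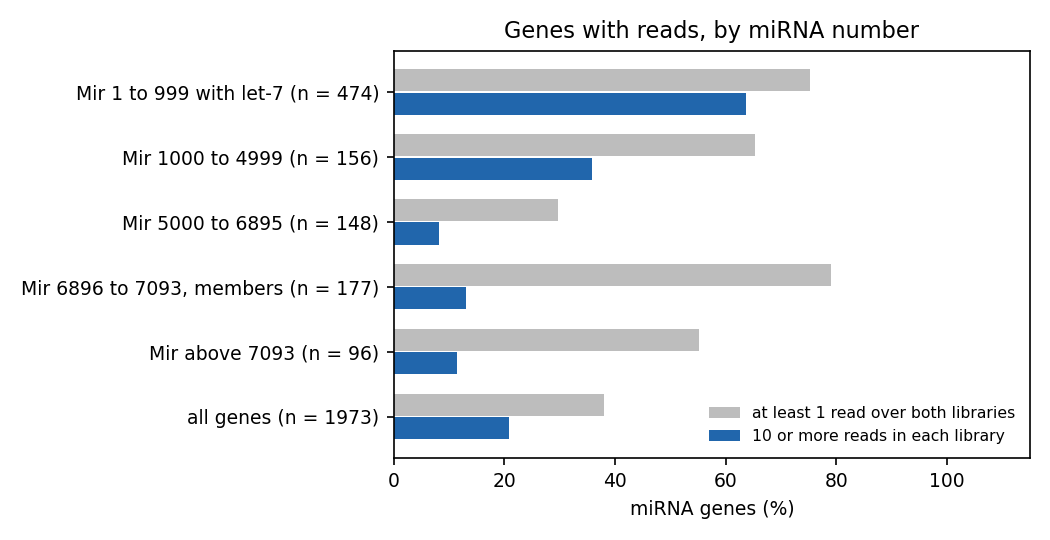
Percentage of miRNA genes with at least 1 read over both libraries (grey) and with 10 or more reads in each library (blue), for blocks of miRNA numbers and for all genes. The 922 genes without a numbered Mir symbol have no bar of their own but count in all genes. The members stand at 79.1% in grey and 13.0% in blue, while genes up to Mir999 stand at 75.3% and 63.7%.

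Mir6944 (ENSMUSG00000098341.1) stood far above the rest. It fills a 96-base intron of Dbn1, the gene of drebrin, an actin-binding protein of neurons and dendritic spines. It had 462 reads in replicate 1 (75.1 CPM, exact Poisson 95% interval 68.4 to 82.3) and 363 in replicate 2 (68.3 CPM, 61.5 to 75.7). The intervals overlapped, and the exact binomial test between the libraries gave an adjusted p of 0.300. At 71.7 ± 4.79 CPM it held 31.8% of all member reads and ranked 230 of 1973 genes. That level was 10.4-fold that of the next member, a gap well beyond the SD of either, and 8.04-fold when reads were divided by hairpin length. Mirtrons known for longer stood in the same range, with Mir877 (a whole intron of Abcf1) at 88.4 ± 3.93 CPM, Mir702 (at Plod3) at 79.1 ± 11.3 and Mir1224 (a whole intron of Vwa5b2) at 50.9 ± 16.4. Mir6944 lay below Mir702 by less than the SD of Mir702, and below Mir877 by more than the SD of either.

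The second whole-intron member was Mir6958 (ENSMUSG00000098663.1), which fills a 73-base intron of Dennd6b, a regulator of Rab GTPases. It had 35 reads in replicate 1 (5.69 CPM) and 43 in replicate 2 (8.09 CPM). The other 13 whole-intron members were undetected. Mir7070 (Fbxw9) had 6 and 13 reads, Mir7068 (Cherp, named for a calcium homeostasis protein) 10 and 9, Mir7080 (Cpne7, a copine) 5 and 9, Mir7060 (Fbrs) 10 and 1, and Mir7082 (Raver1) 5 and 4. Mir7018 (Hspg2, which encodes perlecan) had 2 and 0, while Mir6970 (Skiv2l) and Mir7091 (Dnase1l1) had 0 and 1. The remaining 5 had 0 reads in both libraries. Their hosts were Myh3, a myosin heavy chain of embryonic muscle (Mir6923), Lta and Lat, which encode a lymphotoxin and an adaptor of T cells (Mir6974 and Mir7058), Mst1, which encodes a protein made by liver (Mir7088), and Arap3 (Mir6981). Host mRNA was not measured, and whether counts of 0 go with the kind of host was not tested. Whole-intron members therefore ran from 0 to 825 reads over both libraries, with 2 of 15 detected (13.3%) and a median of 0.163 CPM.

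The 5′-tailed members, with the hairpin at the acceptor, had a lower maximum than whole-intron members, and the order of the medians was not resolved. Of 150 such members, 19 were detected (12.7%), 121 had at least 1 read (80.7%) and the highest was 5.35 CPM. Their median was 0.413 CPM, against 0.163 CPM in whole-intron members. Both medians lie below the 0.488 and 0.565 CPM that a count of 0 allows in replicates 1 and 2. Apart from Mir6944, the highest whole-intron member, Mir6958, stood at 6.89 CPM. Whole-intron members had a read in 10 of 15 (66.7%). The detected shares lay below the 20.8% of all genes at 10 reads. At 3 reads they were 40.0% for whole-intron and 37.3% for 5′-tailed members, above the 26.7% of all genes. All genes include the 922 without a numbered Mir symbol. No test of these differences was made.

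Mir6951, in an intron of Azin1, which encodes an inhibitor of antizyme in polyamine control, led the 5′-tailed members. It had 38 reads in replicate 1 and 24 in replicate 2, or 6.18 and 4.52 CPM. Mir6928, in an intron of the vacuolar proton pump subunit gene Atp6v0a1, had 33 and 24 reads (5.36 and 4.52 CPM). Mir6971, in an intron of the RNA helicase gene Skiv2l, had 28 and 27 reads (4.55 and 5.08 CPM). Within each library the Poisson intervals of these 3 members overlapped one another, so the order among them is not resolved at this depth.

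The 5′-tailed members that followed had hosts of several kinds. Mir6934 (Tbc1d16, a Rab GTPase-activating protein) had 24 and 23 reads, Mir6979 (Diaph1, a formin that nucleates actin) 18 and 28, and Mir6935 (Actg1, gamma actin) 13 and 21. Among hosts of neural function, Mir7066 (Ncan, the brain matrix proteoglycan neurocan) had 18 and 23 reads. Among mitochondrial hosts, Mir6900 (Ndufa10, a complex I subunit) had 22 and 19 and Mir7019 (Pink1, a kinase of mitochondrial quality control) 25 and 13. Hosts that act on RNA or chromatin held Mir6975 (Ddx39b, an RNA helicase of splicing and export) at 20 and 16, Mir7026 (Ep400, a chromatin remodeller) at 19 and 16 and Mir6998 (Fubp3) at 12 and 11.

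For hosts of protein quality control and lysosomes, Mir6988 (Syvn1, a ubiquitin ligase of the endoplasmic reticulum) had 17 and 14 reads and Mir7059 (Cln3, a lysosomal membrane protein) 14 and 14. Mir7069 (Farsa, a subunit of phenylalanyl-tRNA synthetase) had 14 and 15. Mir6991 (2700081O15Rik) had 25 and 12, Mir7083 (Dock6) 24 and 12, and Mir6945 (Pdlim7, a PDZ and LIM domain protein) 18 and 13. Below Mir6944 the detected members thus fell from 6.89 to 1.85 CPM, between ranks 324 and 424 of 1973, with no step larger than the counting intervals between neighbours.

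The other arrangements added 2 detected members. Mir6977, in a 79-base intron of Ptprs, a receptor phosphatase that binds chondroitin sulfate proteoglycans on neurons, was the most abundant of the 4 with the 5′ end at the donor. It had 26 reads in replicate 1 and 21 in replicate 2 (4.09 ± 0.19 CPM). The others were Mir6936 (Sirt7, 9 and 6 reads), Mir6973b (Gfra4, 0 and 1) and Mir6927 (Mllt6, 0 and 0). Mir6903, which overlapped an exon of the calcium pump gene Atp2b4, had 10 and 11 reads, and the other 6 exon-overlapping members had at most 5 over both libraries.

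**Figure D3:**
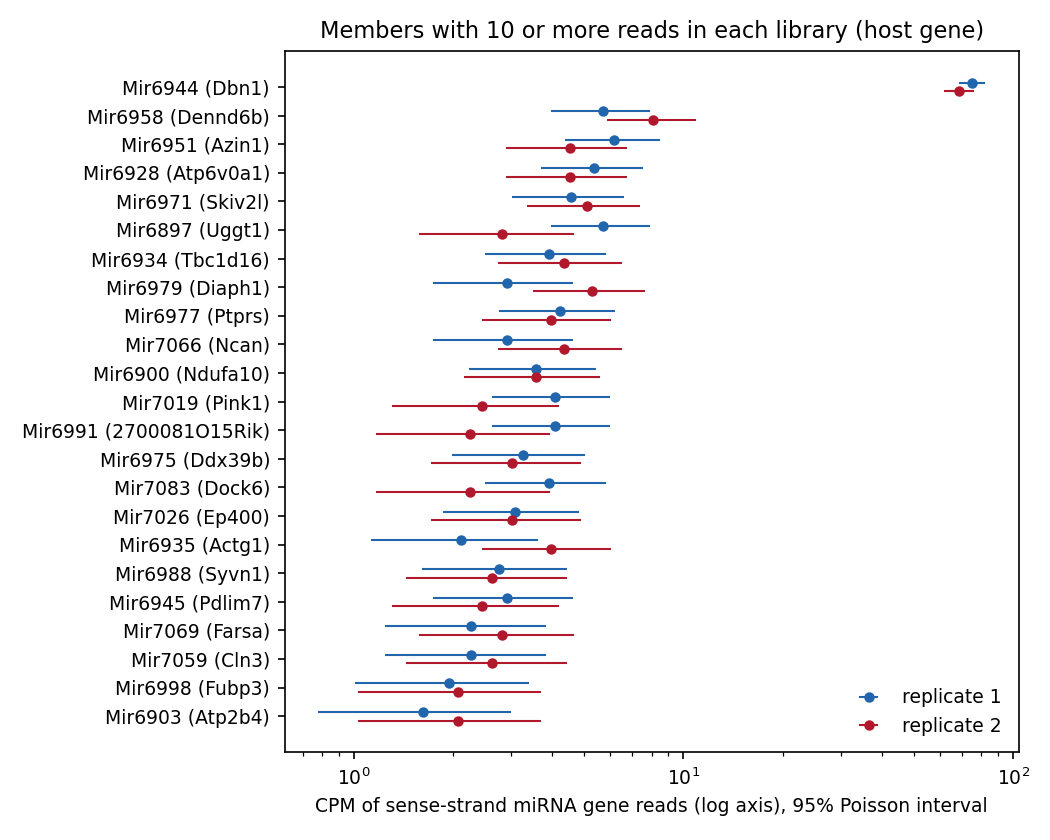
CPM in replicate 1 (blue) and replicate 2 (red) for the 23 members with 10 or more reads in each library, ordered by mean, with host genes in brackets, on a log axis. Bars are exact 95% Poisson intervals, which cover counting error only. Mir6944 stands at 75.1 and 68.3 CPM, and the other 22 lie below 8.1 CPM with intervals that overlap those of their neighbours.

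Tail lengths of detected and undetected 5′-tailed members overlapped widely. The tail, the intron sequence upstream of the hairpin, had a median of 624 bases in the 19 detected members (range 23 to 2838) and of 418 bases in the 131 others (range 7 to 36205). In the 29 with 0 reads the median was 434 bases. The tails ran between quartiles from 141 to 1093 bases in detected members and from 61.5 to 1165 in the others, so the 2 distributions overlapped over most of their range. Hairpin lengths had medians of 63 and 66 bases.

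**Figure D4:**
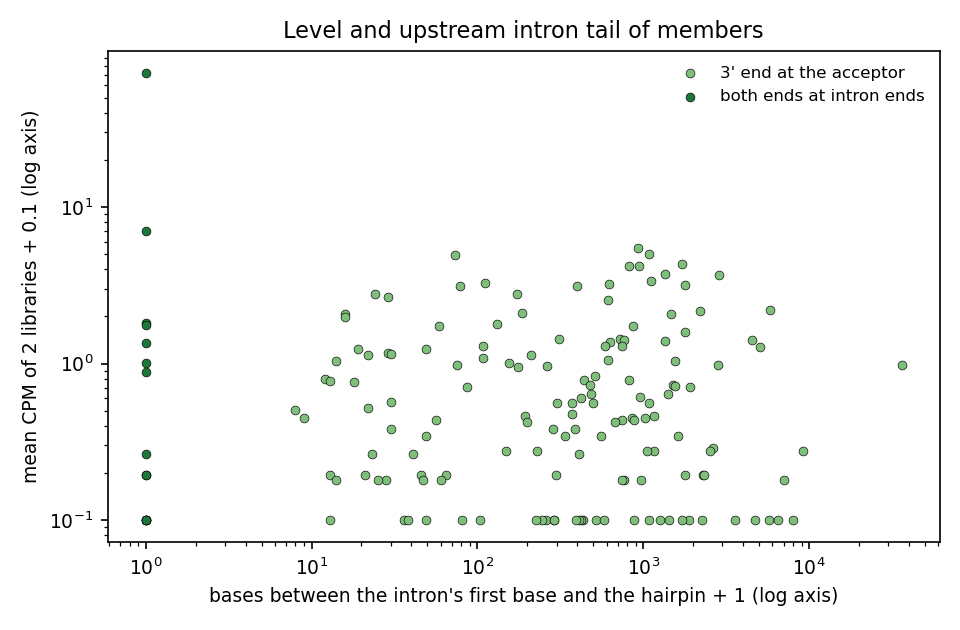
Mean CPM of both libraries plus 0.1 against the number of bases between the start of the intron and the hairpin plus 1, both on log axes, for members with the 3′ end at the acceptor (light green) and members that fill an intron (dark green). Levels below 6 CPM occur across the whole range of tail lengths, and Mir6944, at the top left, has no tail.

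Few members passed a test for a difference between the libraries, and at the low counts of most members only large differences could pass. Reads in both libraries were seen for 98 members and in 1 library only for 42, which had at most 9 reads there. Of the 23 detected members, 12 had a ratio of replicate 2 to replicate 1 below 1 and 11 above 1. By the two-sided exact binomial test, adjusted over all 411 detected genes with the Benjamini-Hochberg method, 1 of 23 passed, compared with 47.4% of all detected genes, whose median level was 108 CPM against 3.26 CPM in the detected members. The test compares these libraries, not conditions. The member that passed was Mir6897, in an intron of Uggt1, a sensor of glycoprotein folding. It had 35 reads in replicate 1 and 15 in replicate 2 (5.69 and 2.82 CPM), a log2 ratio of -0.98 with an adjusted p of 0.0481 by the exact binomial test. Its adjusted p was 0.0702 with TMM factors, 0.0807 with all 750 genes that had a read and 1 by the exact test of edgeR with the biological coefficient of variation set to 0.2, so the call did not hold under these settings. It was 0.0477 with reads of either strand, where the call held. Over all genes tested, 45% passed with TMM factors and 45% with RLE size factors, against 0 of 23 members in each, and 47.9% with reads of either strand, against 1 of 23. At a minimum of 50 reads 59.9% of genes passed, but only 1 member, Mir6944, could be tested there, and it did not pass.

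Some members below the detection minimum differed more. When every gene with a read was tested, 8 of 140 members (5.71%) passed the exact binomial test, against 26.7% of all 750 genes tested. Among the members tested, 32 had 1 or 2 reads over both libraries and could not pass. The lower share therefore does not show that members differed less. Of the 8, 4 were higher in each library. Higher in replicate 2 were Mir6940 (Cep170b, 1 and 13 reads, adjusted p = 0.00267), Mir7052 (Josd2, 0 and 9), Mir6908 (Pdxk, the kinase of vitamin B6, 2 and 14) and Mir6986 (Rce1, a protease of prenylated proteins, 4 and 14). Higher in replicate 1 were Mir7089 (Cdc25a, a cell cycle phosphatase, 9 and 0), Mir6990 (Esrra, an orphan nuclear receptor, 20 and 5), Mir7036b (8 and 0) and Mir7064 (Cars, cysteinyl-tRNA synthetase, 14 and 2). These members were singled out after their values were seen. The plot of reads in both libraries shows them off the diagonal, while Mir6944 and Mir6958 lie near it. In the exact test of edgeR, 0 of the 23 detected members passed and 0 had an unadjusted p under 0.05. That test called 1.46% of all 411 genes, so a count of 0 among 23 says nothing about the members.

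**Figure D5:**
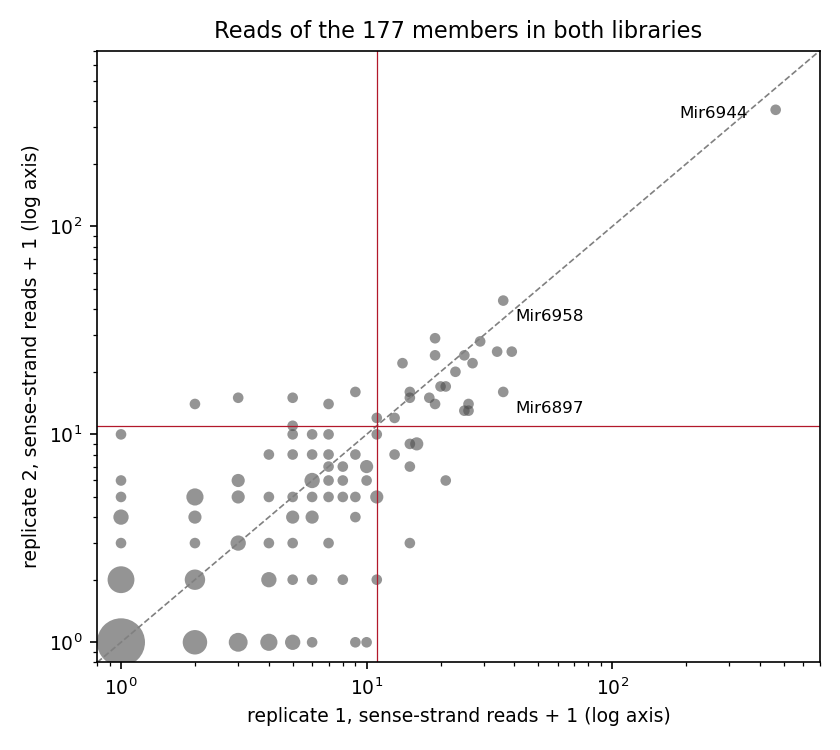
Sense-strand reads plus 1 in replicate 1 and in replicate 2 for the 177 members, on log axes. Point size grows with the number of members at that pair of counts, red lines mark 10 reads and the dashed line marks equal counts. The upper right corner holds the 23 detected members, and the largest point, at the lower left, holds the 37 members with 0 reads in both libraries.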

How the data were processed

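The deposited tables, 1 for each library, hold raw counts: reads assigned by the authors to each miRNA gene. The assembly was mm10 and the annotation GENCODE M4, as the authors' accompanying text states. How reads were trimmed, aligned and counted is not given in the sources used here. Columns exist for either strand, the gene's strand (used here) and the opposite strand. Rows that name no gene were left out of library sizes. Reads mapping to several places were 35.3% and 36.5% of all reads and those in sense-strand gene counts 45.1% and 44.2%.

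Identifiers without version were matched to GENCODE M21 (mm10), which named 1894 of 1973 genes. CPM used summed sense-strand counts. Ratios had 0.5 reads added. Introns came from M21 transcripts of the same strand that are not small RNAs. Sequences are from RefSeq. Members and lists were chosen with earlier results of these data known. The named members were those with 10 or more reads in both libraries, which include the 20 highest, any passing the library test, and Mir877, Mir702 and Mir1224 for comparison. There is a single group, so no condition was compared. Alternatives covered minimum, scaling, strand, test, tolerance and leaving out each library. Software was Python 3.11.15, scipy 1.17.1, pandas 2.3.3, matplotlib 3.10.9, edgeR 4.0.16 and RNAfold 2.7.2.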

Additional observations from a re-analysis of the deposited data

How the results depend on the processing

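Shares over all genes include the 922 genes without a numbered Mir symbol. The number of detected members rests on the read minimum. It was 23 at 10 reads (13.0%, against 20.8% of all genes), 65 at 3 reads (36.7% against 26.7%), 98 at 1 read (55.4% against 31.1%) and 1 (Mir6944) at 50 reads (0.565% against 15.7%), and 29 to 34 when detection was called in a single library. In the same order of 3, 1 and 50 reads, whole-intron members numbered 6, 7 and 1 and 5′-tailed members 56, 86 and 0. In a single library these were 3 to 4 and 24 to 28. The members' summed share was 0.0155% without Mir6944 and 0.0101% of all reads of the tables, and 0.0222% to 0.0230% with a single library. Members that passed between the libraries numbered 0 of 23 with TMM factors and 0 of 23 with RLE size factors (185 of 411 over all genes in each), 0 of 1 at 50 reads (185 of 309), 0 of 23 with edgeR's exact test at the fixed coefficient of 0.2 (6 of 411) and 8 of 140 with no minimum (200 of 750). Whole-intron members numbered 14 at a tolerance of 0 bases and 18 at 10. Counting both strands kept the counts of detected and of passing members. For the 23 named members the CPM moved by at most 2.53% over 69 alternative values. No paired analysis was possible because there is 1 group. Levels below about 0.5 CPM are not resolved at this depth. That limit covers counting only. In the same libraries the liver miRNA Mir122 stood at 65.1 CPM and the heart miRNA Mir208a at 1.48 CPM. Which cells gave the reads of members at such levels was not tested.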

Other observations

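In 4 host genes 2 members lie in different introns of the same gene. Skiv2l hosts Mir6971, at the acceptor of a 135-base intron, with 28 and 27 reads in replicates 1 and 2, and Mir6970, a whole intron of 67 bases, with 0 and 1. Srebf1, which encodes a regulator of lipid synthesis, hosts Mir6921 with 7 and 1 reads and Mir6922 with 0 in both. Arap3 hosts Mir6980 (2 and 0 reads) and Mir6981 (0 and 0), and Cmip hosts Mir7077 (1 and 0) and Mir7078 (0 and 1). The counts of the Skiv2l pair differ widely, those of the Arap3 and Cmip pairs are all within the 3 reads that a count of 0 allows, and no difference was tested.

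The members are mostly seed singletons. Their 310 annotated mature sequences, from 162 members, hold 285 distinct seeds, and 21 seeds occur in 2 or more members. Detected members sharing a seed with another member were Mir6945 (with Mir6927, 3p arms), Mir6975 (with Mir7005, 5p arms) and Mir7019 (with Mir6907, 5p arms). Among the 20 most abundant miRNA genes of these libraries, 3 member sequences matched a seed: Mir7016 shares that of miR-149-3p, and Mir6932 and Mir7039 that of miR-26b-3p. Abundance was ranked per gene, so the levels of these matched 3p arms are not known. Mir7016 had 8 and 15 reads, Mir6932 2 and 4, and Mir7039 1 and 3.

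Whole-intron hairpins outside the number range were 8, of which 6 were detected, at up to 88.4 CPM. No reads were counted on the opposite strand of any member, in either library.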
